A study of Medicago ruthenica with 9 samples.

Results

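The basic leucine zipper (bZIP) and homeobox-leucine zipper (HD-Zip) transcription factors of Medicago ruthenica leaves were followed under drought stress and after rewatering. Members were the unigenes whose annotation or SwissProt description contained bZIP, basic leucine zipper, TGACG, homeobox-leucine zipper or HD-ZIP, in any case, and that reached 1 TPM in at least 3 libraries. Of 52457 unigenes in the expression table, 81 carried such a name, and 76 of these passed the filter, 26 of 28 bZIP names and 50 of 53 HD-Zip names. Those 76 were among 44538 unigenes tested. The 5 names that failed the filter reached 1 TPM in at most 2 libraries.

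Both families bind DNA as dimers held together by a leucine zipper, a helix with leucines at regular spacing. In bZIP factors the zipper follows a basic DNA-binding region, and the ABF members, studied in Arabidopsis, are phosphorylated by SnRK2 kinases when abscisic acid (ABA) accumulates and then act on promoters of drought genes. HD-Zip factors, found in plants only, join a homeodomain to the zipper and fall into 4 classes. In Arabidopsis, class I is known from water deficit and ABA, class II from shade and auxin responses, class III from leaf polarity and vascular development under control of a conserved microRNA, and class IV from the epidermis.

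Medicago ruthenica is a perennial forage legume, and each of the 3 groups held 3 leaf libraries. Seedlings were 4 weeks old at the start and grew 8 to a pot. Drought-stressed plants (DS) received no water for 15 days, until relative soil moisture had dropped to 20%. Rewatered plants (RW) were dried in the same way, brought back to saturation, and harvested 2 days later. Control plants (CK) were watered every 3 days, with relative soil moisture over 80%. CK leaves were taken on the same day as DS leaves, so RW and CK differ in harvest day as well as in history. The libraries of a group are named biological replicates. Whether separate pots or plants stand behind them is not given in the sources used here, and the p-values then cover the spread between libraries, which may be technical.

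Values are TPM (relative transcript abundance), a scale that corrects for unigene length and library total and does not keep sequencing depth. The TPM of a library summed to between 994748 and 996266. RW replicate 2 stood apart within its group. Over log2(TPM + 1) of all tested unigenes it correlated with RW replicates 1 and 3 at 0.852 and 0.865, while those correlated at 0.904. With the CK libraries RW replicate 2 correlated at 0.838 to 0.852. RW replicate 1 gave 0.882 to 0.9 with CK, and RW replicate 3 gave 0.874 to 0.881. A unigene was called when limma gave a Benjamini-Hochberg adjusted p under 0.05 and a log2 fold change beyond 1 in size. Fold changes are on the log2(TPM + 1) scale, which understates changes of low unigenes. Over all tested unigenes DS leaned below CK, with a median log2 fold change of −0.19. Median-of-ratios scaling brought that median to −0.05 and quantile normalization to −0.04, so members are set against −0.19 below. Leaf identity was checked with mesophyll markers (small subunits of rubisco, rubisco activase and chlorophyll a-b binding proteins), which summed to 36618 to 99761 TPM per DS library, 60793 to 84273 TPM per RW library and 70067 to 95688 TPM per CK library. Summed phloem, dividing-cell and guard-cell markers reached 888 to 3645, 154 to 217 and 43.5 to 49.4 TPM in DS libraries, 1065 to 2390, 295 to 446 and 41.5 to 47.3 TPM in RW libraries and 1892 to 7721, 277 to 355 and 47.5 to 58.7 TPM in CK libraries, and their part in the members' values was not tested. Root or nodule markers summed to 1750 to 2714 TPM in DS, 831 to 1017 TPM in RW and 922 to 1222 TPM in CK. In DS vs. CK 1 of 12, an early nodulin-like protein, was called higher, against 2.39% of all tested unigenes. That unigene alone held 1350, 994 and 1030 TPM in DS, 218, 224 and 158 TPM in RW and 203, 218 and 268 TPM in CK. The part of these markers was not tested either. These are whole leaves, in which fewer cells of a type and less RNA per cell cannot be told apart. Each gene symbol is that of the best SwissProt match, mostly from Arabidopsis, and unigenes that share a symbol may be paralogs or fragments of a gene that share reads.

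Both families were readily detected in the leaf. Summed TPM of the 50 HD-Zip members was 1700, 2034 and 1582 in DS, 1265, 1838 and 1381 in RW and 1178, 1441 and 1474 in CK. The 26 bZIP members summed to 824, 1096 and 615 TPM in DS, 559, 815 and 681 TPM in RW and 589, 566 and 544 TPM in CK. In both sums every DS library lay above every CK library, while RW replicate 2 lay inside the DS range and above the rest of its own group. In the bZIP sum RW replicate 3 lay inside the DS range as well.

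Unigenes of a few names carried a large share of these sums. The 3 unigenes named ATHB-16 made 42.2% to 47.7% of the HD-Zip sum in DS libraries, 34.2% to 47.7% in RW libraries and 35.2% to 36.4% in CK libraries. The 2 named BZIP11 made 26.6% to 45.8% of the bZIP sum in DS, 14.5% to 21.3% in RW and 13.7% to 16.8% in CK. In all, 43 HD-Zip and 22 bZIP members held at least 1 TPM in every library.

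Annotation that the member rule did not use matched the names for most unigenes. The deposited Pfam column gave 1 domain per unigene. Among bZIP members it was a bZIP domain in 17 (bZIP_1 in 14 and bZIP_2 in 3), the DOG1 domain of TGA factors in 2 and a G-box factor domain (MFMR_assoc) in 1, and 3 had none. The other 3 carried zf-UDP, DUF630 or DUF632, domains of other proteins, and are kept apart below as bZIP by name only. Among HD-Zip members it was a homeodomain in 23, a lipid-binding START domain in 15, an HD-ZIP_N or HALZ zipper segment in 7 and a MEKHLA domain in 3, and 2 had none. Members had a median length of 1172 bp in the bZIP family and 1215 bp in the HD-Zip family. The 26 bZIP members came from 26 clusters of the Trinity assembly, while the 50 HD-Zip members came from 34, so that several HD-Zip unigenes may be pieces of a single gene.

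After 15 days without water, 7 of the 76 members were called against CK and 69 were not. Among bZIP members 2 rose and 1 fell (11.5% called), and among HD-Zip members 4 rose and 0 fell (8.00% called). Of the 2 bZIP members that rose, 1 is bZIP by name only. The background over all tested unigenes was 4.96% called, with 2.39% higher and 2.57% lower. At an unadjusted p under 0.05 the test gave 3 higher and 2 lower bZIP members of 26 and 8 higher and 6 lower HD-Zip members of 50, where 20.6% of all tested unigenes passed, 7.04% higher and 13.6% lower. The median log2 fold change was −0.05 for bZIP members and −0.04 for HD-Zip members, against −0.19 for all tested unigenes, and it was 0.11 and 0.12 after median-of-ratios scaling. The bZIP count was 1 without CK replicate 3 and 1 without DS replicate 2. The HD-Zip count was 2 on leaving out CK replicate 2 or 3, or DS replicate 1 or 2.

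Against RW leaves the DS leaves gave a similar count from shared libraries. There 1 bZIP member was higher and 1 lower in DS (7.69% called), and 4 HD-Zip members were higher and 0 lower (8.00% called), where the background was 3.94% called, 2.15% higher and 1.79% lower. The bZIP member that was higher is bZIP by name only. At an unadjusted p under 0.05 there were 4 higher and 3 lower bZIP members and 7 higher and 4 lower HD-Zip members, where 18.3% of all tested unigenes passed, 6.73% higher and 11.5% lower. Median log2 fold changes were −0.22 for bZIP members, −0.03 for HD-Zip members and −0.17 for all tested unigenes. The HD-Zip count was 1 without RW replicate 1 or 3, and 2 without CK replicate 2 or 3 or any DS replicate. The bZIP count was 0 without DS replicate 2 or RW replicate 1 or 3, and 1 without CK replicate 2 or 3 or DS replicate 1 or 3.

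RW vs. CK gave no call in either family. The background was 0.00225% called, 1 unigene of 44538. At an unadjusted p under 0.05 limma gave 0 bZIP members and 3 of 50 HD-Zip members, 2 higher and 1 lower, which is near the 6.5% of all tested unigenes that passed, 3% higher and 3.5% lower. The smallest adjusted p was 0.793 among bZIP members and 0.745 among HD-Zip members.

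**Figure D1:**
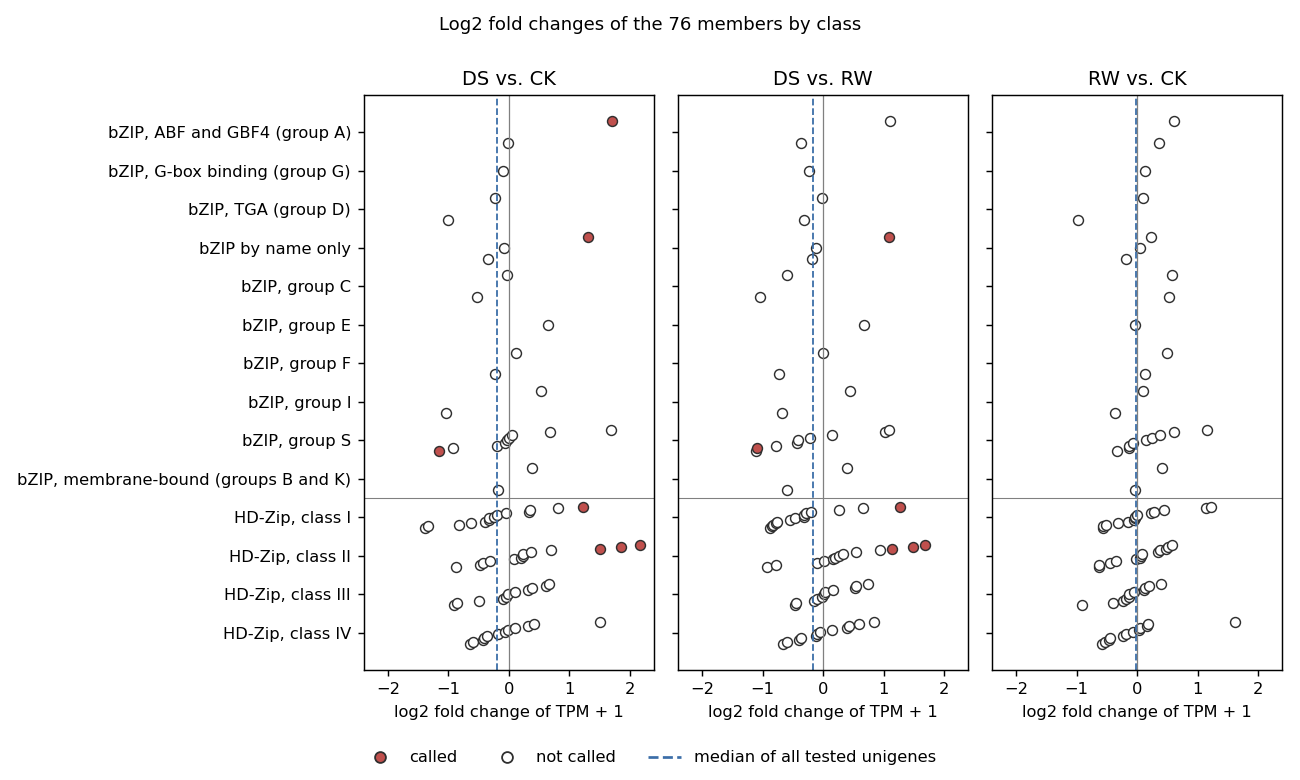
Log2 fold changes on the log2(TPM + 1) scale (x axis) of the 26 bZIP and 50 HD-Zip members by class (y axis), 1 point per unigene, filled where called, with the median of all tested unigenes as a dashed line. Against CK as against RW, 3 of 13 members of HD-Zip class II were called, and no point is filled in RW vs. CK. Of all tested unigenes 4.96% were called in DS vs. CK, 3.94% in DS vs. RW and 0.00225% in RW vs. CK.

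Of the 2 bZIP members that rose in DS vs. CK, ABF2 had the larger log2(TPM + 1) fold change. ABF2 (TRINITY_DN20863_c1_g1) is an ABA-responsive element binding factor that in Arabidopsis is activated under drought. Its level was 64.8, 79.2 and 65.8 TPM in DS, 26.5, 45.5 and 26.8 TPM in RW and 30.7, 18.0 and 15.8 TPM in CK. All 3 DS libraries lay above all RW and CK libraries, and the RW and CK libraries overlapped. The difference was called in DS vs. CK (log2 fold change 1.71, SE 0.29, limma adjusted p = 0.0113) and not in DS vs. RW (log2 fold change 1.10, SE 0.29, limma adjusted p = 0.0712). The DS vs. CK call was lost without CK replicate 3 (adjusted p = 0.0514) and without DS replicate 2 (0.0505), while the DS vs. RW difference was called without RW replicate 2 (log2 fold change 1.35, adjusted p = 0.0431) and without CK replicate 1 (0.0475). It was the only bZIP member annotated with the GO terms for response to water deprivation and response to abscisic acid.

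The other group A member, GBF4 (TRINITY_DN19437_c0_g1), a G-box binding factor of Arabidopsis, did not follow ABF2. It had 25.6, 25.8 and 16.2 TPM in DS, 24.4, 33.2 and 29.5 TPM in RW and 24.7, 24.4 and 18.2 TPM in CK. The 3 groups overlapped, with a log2 fold change of −0.01 (SE 0.24, adjusted p = 0.983) in DS vs. CK by limma and a 95% interval of −0.55 to 0.52.

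Group S bZIP factors are small proteins that pair with group C factors and act in low-energy and amino acid metabolism in Arabidopsis. They gave the decrease that was called and the highest level of any bZIP member. BZIP53 (TRINITY_DN16188_c0_g1), which in Arabidopsis activates seed maturation genes and proline dehydrogenase, had 15.5, 8.00 and 8.94 TPM in DS, 23.6, 26.6 and 20.2 TPM in RW and 22.9, 22.3 and 28.6 TPM in CK. Each DS library lay below each RW and CK library, and RW and CK overlapped. It fell against CK (log2 fold change −1.16, SE 0.26, limma adjusted p = 0.0325) and against RW (log2 fold change −1.09, SE 0.26, limma adjusted p = 0.0467). Both calls were close to the threshold. In DS vs. CK the call was lost without any 1 of the CK libraries, DS replicate 2, DS replicate 3 or RW replicate 1 (adjusted p from 0.0505 to 0.120), and in DS vs. RW without any 1 library other than DS replicate 1 (from 0.0672 to 0.142).

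Its 2 namesakes showed no such separation. TRINITY_DN15281_c0_g2, the most abundant of the 3, had 70.0, 37.1 and 50.1 TPM in DS, 64.5, 52.4 and 59.6 TPM in RW and 47.5, 48.7 and 63.5 TPM in CK. TRINITY_DN25518_c0_g4, whose annotation reads bZIP transcription factor 11, had 17.0, 23.2 and 17.1 TPM in DS, 16.4, 38.4 and 27.3 TPM in RW and 33.0, 15.5 and 19.9 TPM in CK. In both unigenes the DS libraries overlapped the RW and CK libraries.

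BZIP11 (TRINITY_DN15268_c0_g1), a factor whose translation is repressed by sucrose in Arabidopsis, was the most abundant bZIP member. Its level was 231, 494 and 151 TPM in DS, 76.3, 169.8 and 137 TPM in RW and 85.2, 86.4 and 68.5 TPM in CK. All DS libraries lay above all CK libraries, but DS replicate 3 lay below RW replicate 2, and DS replicate 2 was the highest of all 9. The difference from CK missed the adjusted threshold (log2 fold change 1.69, SE 0.42, limma adjusted p = 0.0520), and it was called without DS replicate 3 (log2 fold change 2.07, adjusted p = 0.0310) and without RW replicate 1 (1.69, 0.0466). It was also called with the replicate block (0.0471), the 5 TPM filter (0.0416), median-of-ratios scaling (0.0372) and 1 unigene per Trinity cluster (0.0426), while over all alternatives at the adjusted threshold its adjusted p ran from 0.0310 to 0.153. Against RW it was 1.09 (SE 0.42, adjusted p = 0.209) by limma. The second BZIP11 unigene, TRINITY_DN11371_c0_g1, was far lower, at 8.16, 8.14 and 12.2 TPM in DS, 4.65, 3.67 and 3.98 TPM in RW and 2.98, 8.38 and 6.10 TPM in CK, with DS above RW in every library and CK replicate 2 inside the DS range.

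Group C, the partners of group S, gave no call. BZIP9 (TRINITY_DN13105_c0_g1), a group C factor that forms heterodimers with group S in Arabidopsis, had 22.8, 23.8 and 31.6 TPM in DS, 35.4, 80.4 and 55.3 TPM in RW and 50.2, 31.6 and 33.0 TPM in CK. Every DS library lay below every RW and CK library, with DS replicate 3 and CK replicate 2 equal to 3 digits, and RW replicate 2 was the highest of all. Its log2 fold change was −0.52 (SE 0.31, adjusted p = 0.381) in DS vs. CK and −1.04 (SE 0.31, adjusted p = 0.104) in DS vs. RW by limma, so neither was called. The second BZIP9 unigene, TRINITY_DN17905_c0_g2, averaged 15.7 TPM in DS, 22.9 TPM in RW and 15.4 TPM in CK.

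None of the remaining group S members was called. BZIP44 averaged 11.1 TPM in DS, 10.2 TPM in RW and 10.8 TPM in CK, and the 2 BZIP43 unigenes and an unnamed fragment averaged at most 4.38 TPM in any group. Adjusted p for these 4 was at least 0.378 in DS vs. CK by limma.

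TGA factors carry salicylic acid signals through NPR proteins, and both members that fell under the name rule missed the threshold. TGA21 (TRINITY_DN17838_c0_g1), named from tobacco, averaged 44.5 ± 10.0 TPM in DS, 55.1 ± 7.95 TPM in RW and 51.3 ± 2.78 TPM in CK (SD, n = 3 libraries each). TGA3 (TRINITY_DN23990_c0_g1) had 5.97, 14.7 and 3.69 TPM in DS, 4.51, 12.9 and 6.01 TPM in RW and 10.1, 15.8 and 21.3 TPM in CK, with DS replicate 2 inside the CK range, and a log2 fold change of −1.01 (SE 0.50, adjusted p = 0.291) in DS vs. CK by limma. TGA unigenes outside the name rule had fold changes of both signs, and none was called. In DS vs. CK another TGA3 unigene (TRINITY_DN20820_c0_g1) had a log2 fold change of 1.03 (limma adjusted p = 0.203). A TGA4 unigene (TRINITY_DN21957_c2_g1) had 1.56 (limma adjusted p = 0.0741), and TGAL6 (TRINITY_DN23990_c0_g2) had −1.27 (limma adjusted p = 0.0908).

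Groups F and G and the membrane-bound bZIP factors gave no call either. BZIP16, a G-box factor of light signalling in Arabidopsis, averaged 29.6 ± 3.77 TPM in DS, 34.8 ± 1.62 TPM in RW and 31.6 ± 2.01 TPM in CK. BZIP23, a regulator of the zinc deficiency response in Arabidopsis, averaged 61.7 ± 10.3 TPM in DS, 61.5 ± 6.78 TPM in RW and 56.0 ± 1.78 TPM in CK, and in both the 3 groups overlapped. BZIP60 and BZIP17, membrane-bound factors of endoplasmic reticulum stress in Arabidopsis, were both measured. BZIP60 averaged 25.3 TPM in DS, 18.2 TPM in RW and 18.8 TPM in CK. BZIP17 averaged 15.9 TPM in DS, 25.6 TPM in RW and 18.0 TPM in CK. RW replicate 2 held 38.4 TPM of BZIP17, against at most 19.5 TPM in any other library.

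The DS libraries of BZIP34 were far apart. BZIP34 (TRINITY_DN16845_c0_g5), known from pollen in Arabidopsis, had 14.7, 50.6 and 0.750 TPM in DS, 3.85, 8.28 and 6.77 TPM in RW and 10.3, 7.31 and 2.95 TPM in CK, so the DS group held both the highest and the lowest value. RF2b, named from a rice factor of vascular tissue, had 2 members, with fold changes of opposite sign. TRINITY_DN21985_c1_g1 had 21.4, 16.4 and 16.5 TPM in DS, 10.1, 19.3 and 11.2 TPM in RW and 9.35, 15.2 and 12.6 TPM in CK, and TRINITY_DN24332_c1_g2 had 3.26, 1.90 and 3.36 TPM in DS, 5.62, 3.16 and 7.12 TPM in RW and 5.11, 5.98 and 10.1 TPM in CK. DS lay above CK in the first (log2 fold change 0.53) and below CK in the second (−1.04), with limma adjusted p = 0.328 and 0.142.

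The second bZIP call against CK belonged to a unigene that is bZIP by name only. TRINITY_DN21157_c0_g1 was annotated as BZIP transcription factor from Medicago truncatula, but its SwissProt entry was CESA1, a catalytic subunit of cellulose synthase, and its Pfam domain was zf-UDP, the zinc finger of that enzyme. It had 68.0, 69.4 and 48.6 TPM in DS, 24.2, 29.6 and 31.4 TPM in RW and 26.0, 25.3 and 21.1 TPM in CK. All DS libraries lay above all RW and CK libraries, and it rose against CK (log2 fold change 1.31, SE 0.21, limma adjusted p = 0.00701) and against RW (log2 fold change 1.09, SE 0.21, limma adjusted p = 0.0190). The call against RW was lost without DS replicate 1, DS replicate 2, RW replicate 1 or RW replicate 3 (adjusted p from 0.0521 to 0.0748). The other 2 members of this kind averaged at most 10.0 TPM in any group and were not called. Leaving out the 3 name-only unigenes, the bZIP members called in DS vs. CK were ABF2 and BZIP53. In DS vs. RW only BZIP53 was then called, and it was lower in DS.

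bZIP proteins described in other words fell outside the rule, and some of these moved as much as any member. A wider set of names (ABI5-like, DPBF, CPRF, HY5, VIP1, RF2, TGA and the like) added 28 tested unigenes (1 of them named for the chaperone DnaJ), of which 1 rose and 2 fell in DS vs. CK and 2 fell in DS vs. RW. Of all tested unigenes 4.96% and 3.94% were called in these comparisons. ABF4 (TRINITY_DN22778_c0_g1), a second ABA-responsive element binding factor, had 11.2, 9.82 and 7.28 TPM in DS, 35.9, 52.4 and 46.3 TPM in RW and 40.9, 31.0 and 37.6 TPM in CK. It fell in DS against CK (log2 fold change −1.86, SE 0.23, limma adjusted p = 0.00189) and against RW (log2 fold change −2.14, SE 0.23, limma adjusted p = 9.44e-04), opposite in sign to ABF2 in both comparisons. Among the DS libraries the highest ABF4 value was lower than the lowest RW and CK values.

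CPRF2 (TRINITY_DN19610_c0_g2), a G-box factor named from parsley, had 1.44, 1.46 and 2.54 TPM in DS, 30.6, 4.68 and 20.4 TPM in RW and 22.0, 15.2 and 36.8 TPM in CK, with all DS libraries below the others and RW replicate 2 the lowest of the rest. It fell in DS vs. CK (log2 fold change −3.12, SE 0.58, limma adjusted p = 0.0168) and in DS vs. RW (log2 fold change −2.50, SE 0.58, limma adjusted p = 0.0447). A second CPRF2 unigene, TRINITY_DN17029_c0_g4, averaged 16.8 TPM in DS, 18.2 TPM in RW and 18.1 TPM in CK. HYH (TRINITY_DN23358_c0_g1), the partner of HY5 in light signalling in Arabidopsis, had 25.9, 87.8 and 34.3 TPM in DS, 12.2, 8.98 and 17.5 TPM in RW and 6.80, 15.3 and 12.1 TPM in CK, and it rose in DS vs. CK (log2 fold change 1.89, SE 0.46, limma adjusted p = 0.0458) and was not called in DS vs. RW (log2 fold change 1.70, SE 0.46, limma adjusted p = 0.0749). DS lay above RW and CK in HYH in every library, with DS replicate 2 far above the other DS libraries.

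**Figure D2:**
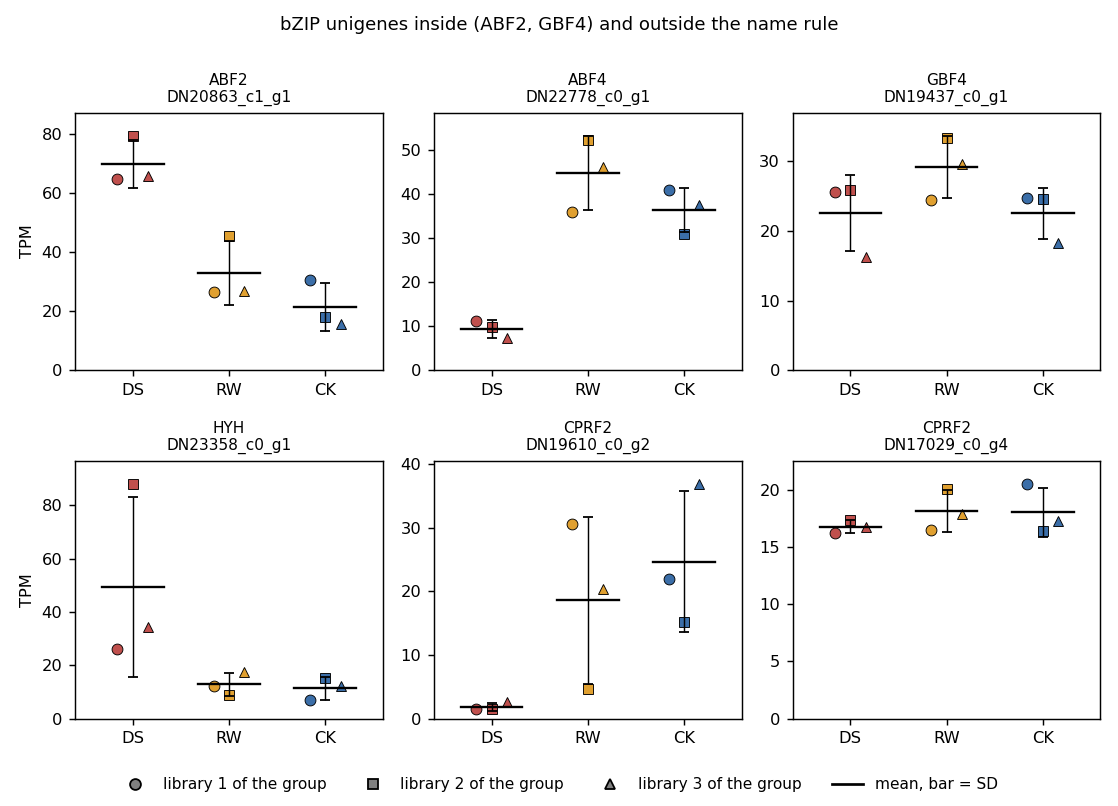
TPM (y axis, from 0) of 6 bZIP unigenes in the DS, RW and CK libraries (x axis), with the library number as marker shape and the mean and SD of 3 libraries as line and bar. ABF2 was highest in DS, at 64.8 to 79.2 TPM, while ABF4 was lowest in DS, at 7.28 to 11.2 TPM, and GBF4 and the second CPRF2 unigene overlapped between groups.

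HD-Zip class I held 14 members, of which 1 (7.14%) was called, in both DS vs. CK and DS vs. RW. The background there was 4.96% and 3.94% called. ATHB-16 (TRINITY_DN23754_c2_g1) was the most abundant of all 76 members, and its annotation in M. truncatula was ATHB-6, a negative regulator of ABA signalling in Arabidopsis. It had 512, 665 and 438 TPM in DS, 166, 309 and 206 TPM in RW and 174, 229.6 and 285 TPM in CK. All DS libraries lay above all RW and CK libraries, which overlapped each other. It rose in DS against CK (log2 fold change 1.23, SE 0.29, limma adjusted p = 0.0397) and against RW (log2 fold change 1.27, SE 0.29, limma adjusted p = 0.0406). The call against CK was lost without any 1 of the 6 DS and CK libraries or RW replicate 3 (adjusted p from 0.0571 to 0.130). The call against RW was lost without any DS replicate, CK replicate 2, CK replicate 3, RW replicate 1 or RW replicate 3 (from 0.0517 to 0.132), but not without RW replicate 2.

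The 2 other ATHB-16 unigenes differed from it and from each other. TRINITY_DN23335_c0_g1, annotated as HAT5, had 167, 203 and 123 TPM in DS, 123, 406 and 164 TPM in RW and 116, 89.4 and 71.8 TPM in CK. DS lay above CK in every library, yet RW replicate 2 held the highest value of all, and the limma log2 fold change was 0.82 (SE 0.41, adjusted p = 0.296) in DS vs. CK. TRINITY_DN19055_c0_g1 had 109, 102 and 106 TPM in DS, 144, 163 and 135 TPM in RW and 125, 195 and 180.0 TPM in CK, with every DS library below every RW and CK library and log2 fold changes of −0.63 (SE 0.20, adjusted p = 0.113) and −0.47 (SE 0.20, adjusted p = 0.258) against CK and RW.

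Class I members that carried the GO term for response to water deprivation were not among the calls. Unigenes with the SwissProt symbol ATHB-6 carried the term. The called ATHB-16 unigene, annotated as ATHB-6 in M. truncatula, did not. ATHB-12, induced by ABA in Arabidopsis, had 2 unigenes, and TRINITY_DN15007_c0_g1 had 10.3, 20.4 and 5.36 TPM in DS, 9.73, 67.6 and 11.9 TPM in RW and 14.3, 4.70 and 7.59 TPM in CK. Its level in RW replicate 2 was more than 3 times that of any other library, and DS and CK overlapped. The other, TRINITY_DN13682_c0_g1, averaged 10.5 TPM in DS, 19.9 TPM in RW and 13.8 TPM in CK. Over the family, 11 HD-Zip members carried the GO term for response to water deprivation (HAT22, ATHB-12, ATHB-6 and HOX16 unigenes), and 0 of these were called in any contrast by limma. The background was 4.96% called in DS vs. CK, 3.94% in DS vs. RW and 0.00225% in RW vs. CK. At an unadjusted p under 0.05 these 11 members gave 0 in DS vs. CK, 1 lower in DS vs. RW and 0 in RW vs. CK. Of all tested unigenes 20.6%, 18.3% and 6.5% passed there.

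The ATHB-13 unigenes, named for a factor of leaf shape in Arabidopsis, gave no call. TRINITY_DN15007_c0_g4 had 4.03, 2.62 and 4.94 TPM in DS, 10.2, 7.46 and 5.32 TPM in RW and 6.48, 16.6 and 13.8 TPM in CK, with every DS library below every RW and CK library. Its DS vs. CK difference missed the adjusted threshold (log2 fold change −1.39, SE 0.38, limma adjusted p = 0.0683) and was called without CK replicate 1 (log2 fold change −1.76, adjusted p = 0.0338). TRINITY_DN16265_c0_g1 averaged 32.6 ± 8.23 TPM in DS, 56.1 ± 11.0 TPM in RW and 59.8 ± 18.4 TPM in CK. HAT5 (TRINITY_DN21413_c0_g2), a factor of leaf growth in Arabidopsis, averaged 141 ± 9.87 TPM in DS, 166 ± 42.0 TPM in RW and 164 ± 27.6 TPM in CK.

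Class II gave most of the HD-Zip calls, 3 of 13 members (23.1%) in DS vs. CK and 3 of 13 in DS vs. RW. The background in these comparisons was 4.96% and 3.94% called. HAT4, also called ATHB-2, is rapidly induced by shade in Arabidopsis. TRINITY_DN19124_c0_g1 had 113, 128 and 78.6 TPM in DS, 32.7, 42.7 and 35.7 TPM in RW and 28.8, 30.6 and 25.7 TPM in CK. The lowest DS library lay above the highest RW library, and all RW libraries lay above all CK libraries. It rose in DS against CK (log2 fold change 1.85, SE 0.22, limma adjusted p = 0.00162) and against RW (log2 fold change 1.48, SE 0.22, limma adjusted p = 0.00549). Both calls held with each library left out in turn, with log2 fold changes of 1.70 to 2.05 and 1.34 to 1.68.

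The second HAT4 unigene was called in the same 2 comparisons. TRINITY_DN16259_c1_g3, of 796 bp with a HALZ zipper segment, had 80.2, 164 and 95.8 TPM in DS, 28.7, 46.9 and 26.9 TPM in RW and 24.7, 21.2 and 23.8 TPM in CK. It rose in DS against CK (log2 fold change 2.17, SE 0.30, limma adjusted p = 0.00368), the largest increase of any member, and against RW (log2 fold change 1.68, SE 0.30, limma adjusted p = 0.0147). The call against CK held with each library left out, and the call against RW was lost without RW replicate 1 (adjusted p = 0.0552) or RW replicate 3 (0.0657). DS replicate 2 was the highest library, and the RW libraries again lay above the CK libraries.

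The third HAT4 unigene, TRINITY_DN19124_c0_g2, came from the same Trinity cluster as the first, and it was the one annotated as HAT4 from M. truncatula. It had 11.9, 20.9 and 32.5 TPM in DS, 35.4, 31.4 and 38.9 TPM in RW and 14.4, 34.9 and 41.0 TPM in CK. DS and CK overlapped, and the DS mean was below the RW and CK means, with limma log2 fold changes of −0.43 (SE 0.42, adjusted p = 0.616) against CK and −0.77 (SE 0.42, adjusted p = 0.374) against RW. The 3 HAT4 unigenes together summed to 242 ± 61.7 TPM in DS, 106 ± 12.9 TPM in RW and 81.7 ± 12.0 TPM in CK (SD, n = 3 libraries each).

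HAT14, a class II relative of HAT4, gave 2 calls in different comparisons. TRINITY_DN22949_c0_g2 had 24.5, 30.6 and 15.6 TPM in DS, 8.90, 10.4 and 15.9 TPM in RW and 7.09, 7.63 and 7.37 TPM in CK, and DS overlapped RW at DS replicate 3 and RW replicate 3. It rose against CK (log2 fold change 1.51, SE 0.29, limma adjusted p = 0.0188) and was not called against RW (log2 fold change 0.94, SE 0.29, limma adjusted p = 0.114). Its call was lost without any 1 of the CK libraries, DS replicate 1 or DS replicate 2 (adjusted p from 0.0529 to 0.0728).

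TRINITY_DN19913_c0_g3, named HAT14 by SwissProt and HOX11 in M. truncatula, had 6.96, 8.15 and 9.86 TPM in DS, 3.61, 3.17 and 2.88 TPM in RW and 5.10, 3.74 and 5.58 TPM in CK. Every DS library lay above every CK library, and every CK library above every RW library. It rose in DS against RW (log2 fold change 1.14, SE 0.27, limma adjusted p = 0.0469) and missed the threshold against CK (log2 fold change 0.69, SE 0.27, limma adjusted p = 0.183). The call was lost on leaving out any 1 of the 9 libraries (adjusted p from 0.0555 to 0.140). A further HAT14 unigene, TRINITY_DN22188_c0_g2, averaged 2.36 TPM in DS, 3.08 TPM in RW and 1.52 TPM in CK.

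**Figure D3:**
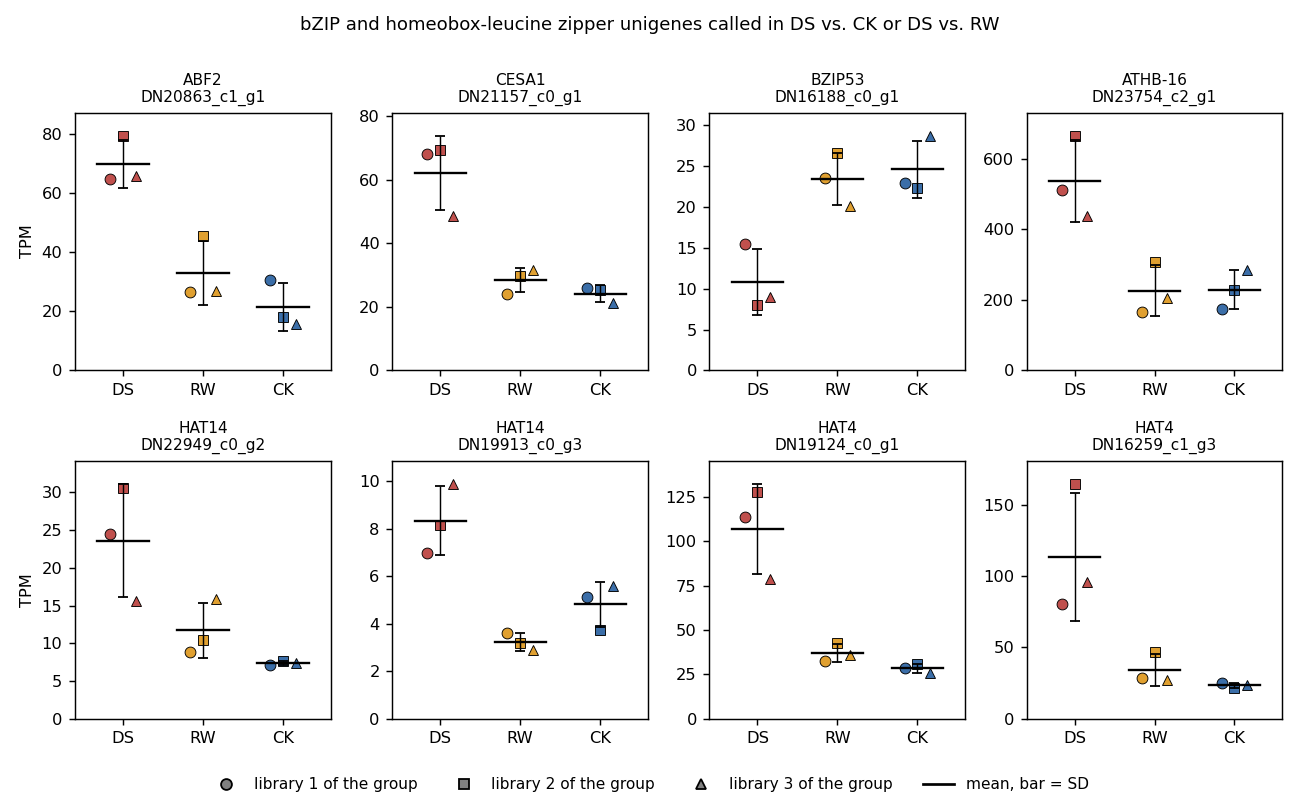
TPM (y axis, from 0) of the 8 members called in DS vs. CK or DS vs. RW, in the DS, RW and CK libraries (x axis), with the library number as marker shape and the mean and SD of 3 libraries as line and bar. DS was the highest group in 7 panels and the lowest in that of BZIP53, where the DS libraries held 8.00 to 15.5 TPM and the other libraries 20.2 to 28.6 TPM.

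HAT22, also class II, is linked to ABA and leaf yellowing in Arabidopsis. Its 6 unigenes, 285 to 712 bp long and from 2 Trinity clusters, summed to 205 ± 15.0 TPM in DS, 177 ± 24.6 TPM in RW and 208 ± 54.9 TPM in CK. None was called, and the smallest adjusted p among them in DS vs. CK was 0.554 by limma. Within CK, replicate 1 held 145 TPM of HAT22, against 247 TPM and 231 TPM in the other two CK libraries.

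**Figure D4:**
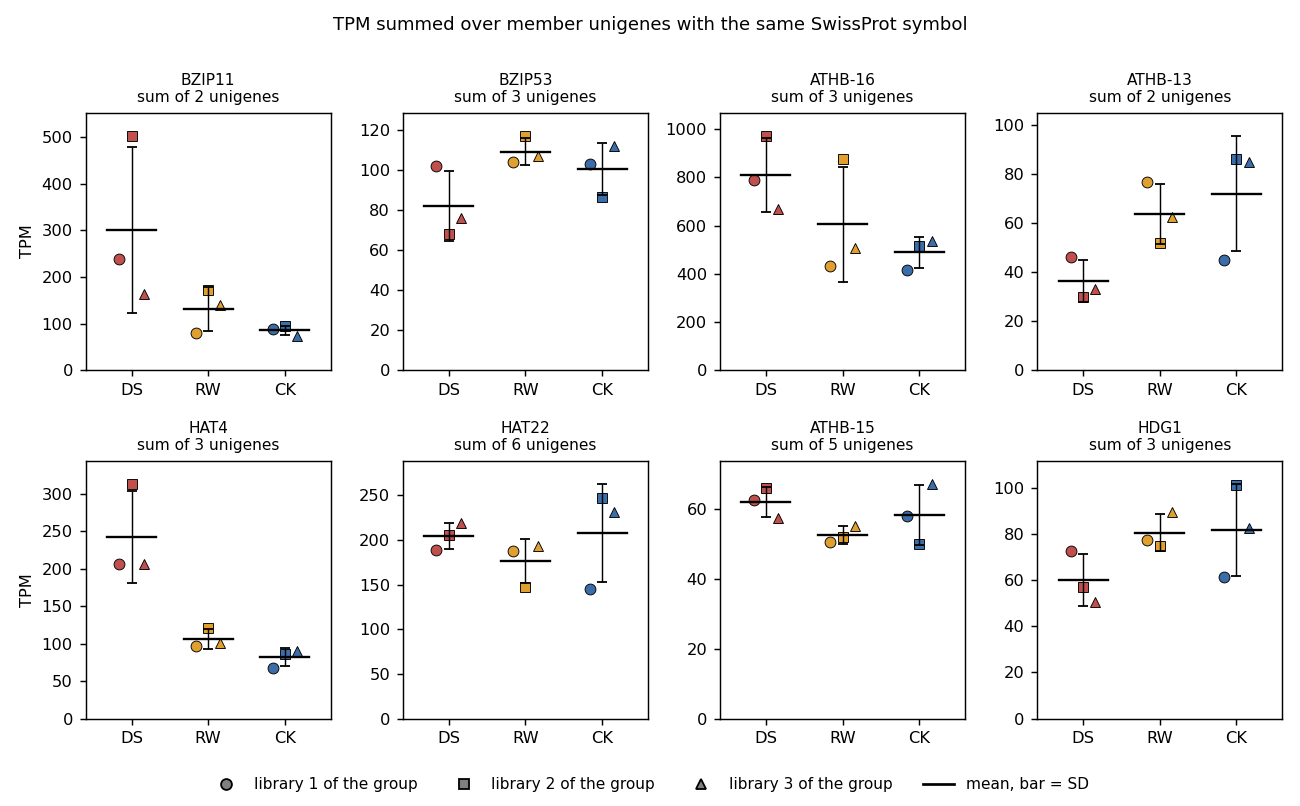
TPM summed over member unigenes that share a SwissProt symbol (y axis, from 0) in the DS, RW and CK libraries (x axis) for 8 symbols with 2 or more unigenes, with the mean and SD of 3 libraries as line and bar. HAT4 sums were 206 to 313 TPM in DS, above every RW and CK library, and BZIP11 sums were 163 to 502 TPM in DS, overlapping RW at replicate 2, while BZIP53, HAT22, ATHB-15 and HDG1 sums overlapped between DS and CK.

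Class III, the START and MEKHLA factors of leaf polarity and vascular tissue, gave no call among 11 members. The background was 4.96% called in DS vs. CK and 3.94% in DS vs. RW. At an unadjusted p under 0.05 limma gave 2 higher and 2 lower in DS vs. CK, 1 higher in DS vs. RW and 1 lower in RW vs. CK, where 20.6%, 18.3% and 6.5% of all tested unigenes passed in either direction. ATHB-14 (TRINITY_DN26283_c1_g2), also called PHABULOSA and known for the upper leaf side in Arabidopsis, had 11.4, 15.8 and 13.9 TPM in DS, 22.1, 17.8 and 17.4 TPM in RW and 27.9, 20.6 and 28.2 TPM in CK. Each DS library lay below each RW and CK library, and the difference from CK was −0.85 (SE 0.21, adjusted p = 0.0511) by limma. HOX32 (TRINITY_DN24164_c2_g3), named from rice and annotated as an ATHB-14 isoform, had 1.82, 1.15 and 1.66 TPM in DS, 1.92, 2.05 and 0.750 TPM in RW and 4.37, 3.92 and 3.01 TPM in CK, so DS and RW both lay below CK.

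ATHB-15, also called CORONA, acts in vascular development in Arabidopsis and had 5 unigenes. TRINITY_DN24214_c1_g3, of 559 bp, had 17.4, 18.1 and 13.3 TPM in DS, 7.74, 9.40 and 10.6 TPM in RW and 9.56, 10.8 and 10.2 TPM in CK. Every DS library of it lay above every RW and CK library, with limma log2 fold changes of 0.62 (SE 0.21, adjusted p = 0.137) against CK and 0.75 (SE 0.21, adjusted p = 0.0901) against RW. The 5 unigenes together summed to 62.0 ± 4.34 TPM in DS, 52.6 ± 2.44 TPM in RW and 58.4 ± 8.53 TPM in CK. The 3 REVOLUTA (REV) unigenes summed to 45.0 ± 6.16 TPM in DS, 48.8 ± 5.90 TPM in RW and 40.2 ± 4.79 TPM in CK. ATHB-8, which marks the first cells of veins in Arabidopsis, had 2.18, 2.18 and 2.55 TPM in DS, 2.49, 2.58 and 1.62 TPM in RW and 2.21, 2.73 and 2.63 TPM in CK. Over the same libraries xylem and secondary wall markers moved, and 12 of 43 fell and 0 rose in DS vs. CK (background 2.57% and 2.39%). They summed to 121 to 334 TPM in DS, 219 to 706 TPM in RW and 545 to 1591 TPM in CK. Their part in the class III values was not tested.

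Class IV factors act in the epidermis. By limma 0 of 12 members were called, against 4.96% of all tested unigenes in DS vs. CK and 3.94% in DS vs. RW. With no adjustment, at p under 0.05, there was 1 higher and 1 lower in DS vs. CK, 1 higher and 1 lower in DS vs. RW and 1 higher in RW vs. CK, against 20.6%, 18.3% and 6.5% of all tested unigenes in the same 3 comparisons. HDG1 (TRINITY_DN16811_c0_g1), the most abundant, had 37.3, 30.9 and 28.9 TPM in DS, 38.1, 45.3 and 45.5 TPM in RW and 31.9, 51.9 and 43.0 TPM in CK, with every DS library below every RW library. HDG8 (TRINITY_DN22712_c0_g1) had 4.97, 14.9 and 4.58 TPM in DS, 18.8, 6.32 and 3.52 TPM in RW and 1.08, 2.14 and 2.51 TPM in CK. All DS and RW libraries lay above all CK libraries in HDG8, but RW replicate 1 and DS replicate 2 were far above the rest, and the log2 fold change was 1.51 (SE 0.58, adjusted p = 0.180) in DS vs. CK and 1.61 (SE 0.58, adjusted p = 0.745) in RW vs. CK.

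GLABRA 2 (GL2, TRINITY_DN15774_c0_g2), which specifies hairs of the epidermis in Arabidopsis, had 1.86, 12.1 and 2.92 TPM in DS, 2.36, 2.79 and 2.34 TPM in RW and 2.52, 3.43 and 3.04 TPM in CK. Only DS replicate 2 stood out. Among markers of epidermis and cuticle, 4 of 28 rose and 1 fell in DS vs. CK (background 2.39% and 2.57%). All 5 are named KCS, enzymes that lengthen fatty acids for wax. The epidermis and cuticle markers summed to 1156 to 1556 TPM in DS, 758 to 951 TPM in RW and 975 to 1461 TPM in CK. Their part in the class IV values was not tested.

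The libraries did not weigh equally on the members. RW replicate 2 held the highest value of 17 of the 76 members (22.4%), where it held 13.8% of all tested unigenes, and DS replicate 2 held the highest value of 16 (21.1%, against 12.5%). CK replicate 1 held the highest value of 2 members (2.63%, against 9.42%). Values more than 2 times the next highest library occurred in 4 members in DS replicate 2 (5.26%, against 1.67% of all tested unigenes) and 2 in RW replicate 2 (2.63%, against 2.53%), and in 0 members in the other 7 libraries.

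Members whose libraries did not overlap between groups were counted as well. In DS vs. CK all 3 DS libraries lay above all 3 CK libraries in 4 bZIP members (15.4%) and 10 HD-Zip members (20.0%), where the background was 8.86%. They lay below in 3 bZIP members (11.5%) and 5 HD-Zip members (10.0%), where the background was 18.1%. In DS vs. RW the DS libraries lay above in 3 bZIP and 10 HD-Zip members, against a background of 8.01%, and below in 3 and 5, against 15.7%. In RW vs. CK the RW libraries lay above in 1 bZIP and 5 HD-Zip members, against a background of 5.35%, and below in 0 and 4, against 6.44%. Class II members lay above in 4 of 13 in DS vs. CK and 4 of 13 in DS vs. RW, and below in 0 of 13 in both.

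In rewatered leaves none of the 7 members called in DS vs. CK was called against CK. Only 1 of 44538 tested unigenes (0.00225%) was called there, so the absence of a call does not show a return to CK levels. The RW vs. CK log2 fold change was 0.60 for ABF2 (95% interval −0.05 to 1.26), −0.07 for BZIP53 (−0.64 to 0.51) and 0.23 for the unigene named CESA1 (−0.24 to 0.69). It was −0.04 for the called ATHB-16 unigene (−0.68 to 0.61), 0.57 for HAT14 (−0.08 to 1.21), and 0.37 and 0.50 for the HAT4 unigenes (−0.12 to 0.86 and −0.17 to 1.16). RW lay above CK in every library in HAT14 and both HAT4 unigenes. These values share RW and CK libraries with the other 2 comparisons.

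Genes that act with these factors moved in both directions. For the lists of genes below, the background was 4.96% called in DS vs. CK and 3.94% in DS vs. RW. Of 16 SnRK2 kinases, which phosphorylate ABF proteins in Arabidopsis, 1 rose and 1 fell in DS vs. CK and likewise in DS vs. RW. SAPK2, named from rice, averaged 158 ± 25.6 TPM in DS, 46.1 ± 15.9 TPM in RW and 26.3 ± 7.70 TPM in CK (log2 fold change 2.57, SE 0.31, limma adjusted p = 0.00195 in DS vs. CK). SRK2E, which acts in stomatal closure in Arabidopsis, averaged 8.01 ± 1.21 TPM in DS, 85.2 ± 9.63 TPM in RW and 82.1 ± 12.9 TPM in CK (log2 fold change −3.20, SE 0.20, limma adjusted p = 3.78e-05). Of 11 tested proteins of the 14-3-3 family, 1 fell and 0 rose in DS vs. CK, and likewise in DS vs. RW. This was TFT9, which averaged 29.9 ± 3.01 TPM in DS, 67.7 ± 8.30 TPM in RW and 83.8 ± 8.09 TPM in CK. Its DS vs. CK log2 fold change was −1.46 (SE 0.18, limma adjusted p = 0.00198).

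Proteins that bind and restrain ABI5-type factors in Arabidopsis, the AFP and Ninja families, rose in 2 of 5 unigenes and fell in 0 in DS vs. CK, and likewise in DS vs. RW. AFP3 (TRINITY_DN14967_c0_g1) averaged 43.5 ± 17.0 TPM in DS, 10.0 ± 7.41 TPM in RW and 4.39 ± 2.43 TPM in CK (log2 fold change 3.07, SE 0.48, limma adjusted p = 0.00714), and a Ninja-family protein (TRINITY_DN16752_c0_g5) averaged 16.0 ± 5.62 TPM in DS, 3.32 ± 2.02 TPM in RW and 3.32 ± 0.743 TPM in CK (log2 fold change 1.93, SE 0.39, limma adjusted p = 0.0244). Of 4 tested COP1 and SPA proteins, which target light-signalling bZIP factors for degradation, SPA3 rose and SPA1 fell in DS vs. CK (log2 fold changes 1.03 (SE 0.23, adjusted p = 0.0329) and −1.06 (SE 0.21, adjusted p = 0.0192) by limma). Of 3 NPR proteins, the partners of TGA factors, 0 were called by limma in any contrast, with 1 higher and 1 lower at an unadjusted p under 0.05 in DS vs. CK, where 20.6% of all tested unigenes passed.

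Late embryogenesis abundant proteins and dehydrins, typical products of ABF-driven promoters, were few in the table. The 6 matched unigenes summed to 43 to 53.2 TPM in DS, 24.7 to 720 TPM in RW and 17.4 to 30.2 TPM in CK. The highest sum was thus in an RW library. The median log2 fold change of those tested was 0.63 in DS vs. CK, 0.12 in DS vs. RW and 0.91 in RW vs. CK. In DS vs. RW and in RW vs. CK 0 were called, where the background was 3.94% and 0.00225%. Of 4 tested, 1 rose in DS vs. CK, a protein named D-34 (TRINITY_DN12769_c0_g1) that averaged 6.13 ± 2.58 TPM in DS, 1.84 ± 1.51 TPM in RW and 0.403 ± 0.168 TPM in CK (log2 fold change 2.29, SE 0.49, limma adjusted p = 0.0280). Homeobox genes of other families changed in 1 of 29 in DS vs. CK, where BLH1 rose (log2 fold change 1.33, SE 0.29, limma adjusted p = 0.0313), and in 1 of 29 in DS vs. RW, where KNAT4 rose (log2 fold change 1.68, SE 0.38, limma adjusted p = 0.0396). The 7 KANADI, YABBY and Asymmetric Leaves genes, which act with or against class III in leaf polarity in Arabidopsis, summed to 49.0 to 56.6 TPM in DS, 62.8 to 77.4 TPM in RW and 75.8 to 102 TPM in CK, and 0 were called by limma. At an unadjusted p under 0.05 the polarity genes gave 0 higher and 3 lower in DS vs. CK, where 13.6% of all tested unigenes were lower. The smallest limma adjusted p among them was 0.0388, for YAB2, whose log2 fold change of −0.70 did not reach the fold threshold.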

How the data were processed

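Leaf RNA was sequenced in 9 libraries, 3 per group. According to the study's methods, the authors trimmed reads with Cutadapt, assembled them with Trinity, kept the longest transcript of each cluster as the unigene and estimated abundance with Salmon. HISAT2 2.0 and StringTie 1.3.0 stand in the submitters' notes without a stated role. The authors deposited TPM values; sequencing depth cannot be read from them, and no interval that needs it is given.

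The study's methods name a count-based test, which TPM do not allow. Instead limma 3.58.1 (R 4.3.3, with statmod 1.5.0) was run on log2(TPM + 1), keeping unigenes that reached 1 TPM in 3 or more libraries. All 9 libraries entered a fit of 3 group means (6 residual df, eBayes with trend = TRUE and robust = TRUE), and p-values are two-sided, adjusted by Benjamini-Hochberg over all 44538 tested unigenes. An exact permutation test of 3 against 3 cannot give p under 0.1, so p-values rest on limma's model. The fit was tested on simulated data.

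Members, classes and gene lists were chosen with earlier results of these data known. Classes were set by SwissProt symbol after the files were read. Named members are those called in any contrast, those sharing a called member's symbol, the most abundant of each class, and the 4 per family with the largest DS vs. CK fold change among uncalled members whose groups do not overlap and whose higher mean is at least 5 TPM; others named were chosen after their values were seen. Genes named from other lists are up to 3 per list among those called in DS vs. CK, by p. Called markers of xylem, mesophyll, epidermis and dividing cells are not named singly. KNAT4, called only in DS vs. RW, YAB2, the early nodulin-like protein, the TGA3 unigene outside the name rule, TGA4 and TGAL6 were named after their values were seen. Alternatives were another threshold, fit, replicate block, pseudocount (0.1 or 5), filter (none, or 5 TPM), scaling, member rule or 1 unigene per Trinity cluster, and each library left out. No sequence of a member is printed, since no reference was used here.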

Additional observations from a re-analysis of the deposited data

How the results depend on the processing

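TPM keep no depth, so what sequencing depth limits could not be assessed, and with 3 libraries a group the counts turned on single libraries. With each library left out in turn, bZIP members called numbered 1 to 3 in DS vs. CK (3 with all libraries) and 0 to 2 in DS vs. RW (2), and HD-Zip members numbered 2 to 4 in DS vs. CK (4) and 1 to 3 in DS vs. RW (4). In RW vs. CK both counts stayed at 0.

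The bZIP count in DS vs. CK was 5 of 26 at an unadjusted p under 0.05 with the same fold threshold (14.3% of all tested unigenes), 5 (2 higher and 3 lower of 30) with members chosen by Pfam domain and 6 (3 and 3 of 54) with widened names. The bZIP count in DS vs. RW was 6 at the unadjusted threshold (12% of all tested unigenes), 4 with widened names, 1 with the replicate block, no filter, median-of-ratios scaling or quantile normalization, and 0 with a pseudocount of 5 or with only the 6 libraries of the pair. The HD-Zip count was 2 in DS vs. RW with only the 6 libraries, and 2 in RW vs. CK at the unadjusted threshold (4.34% of all tested unigenes). The cause of these shifts was not tested.

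BZIP53 (TRINITY_DN16188_c0_g1) lost its call in DS vs. CK under the replicate block (log2 fold change −1.16), the 6-library fit (−1.16), a pseudocount of 5 (−0.93), median-of-ratios scaling (−0.98) and quantile normalization (−1.01), and its call in DS vs. RW under these and with no filter (−0.87 to −1.09). ATHB-16 (TRINITY_DN23754_c2_g1) lost both calls in the 6-library fit (1.23 against CK and 1.27 against RW) and with quantile normalization (0.99 against CK). HAT14 (TRINITY_DN19913_c0_g3) lost its DS vs. RW call in the 6-library fit, under the block and with no filter (1.14 each) and with a pseudocount of 5 (0.69), and the unigene named CESA1 lost its own in the 6-library fit (1.09) and with a pseudocount of 5 (0.99). Leaving out single libraries turned the sign of 2 uncalled RW vs. CK differences: ATHB-16 ran from −0.28 to 0.16 and BZIP53 from −0.16 to 0.04 on the log2 scale. Over all tested unigenes, calls in DS vs. CK were 1066 higher and 1143 lower, 1338 and 768 after median-of-ratios scaling and 1222 and 782 after quantile normalization.

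Libraries with the same number in different groups did not deviate together (r from −0.094 to 0.063, against −0.084 to 0.091 for different numbers). Whether they share a pot, day or batch cannot be read from these values. With the replicate block, 3 bZIP members were higher and 0 lower in DS vs. CK, HD-Zip calls were 4 in DS vs. CK and 3 in DS vs. RW, and all were higher.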
